A study of Mus musculus with 2 samples.

Results

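The microRNA family of miR-15a, miR-15b, miR-16, miR-195a and miR-497a was described here through 6 hairpins, Mir15a, Mir16-1, Mir15b, Mir16-2, Mir195a and Mir497, out of the 2202 hairpins counted in mouse heart. They were chosen by gene symbol in GENCODE M21 and matched by Ensembl gene ID, and all 6 were found. The samples were hearts of 2 female B6CASTF1/J mice aged 25 days (F1 offspring of C57BL/6J crossed with CAST/EiJ), with no treatment or engineered allele in the labels. The age field and the source name give days, while 1 free-text label gives months after the same number, and days are used here. The labels call the samples biological replicates 1 and 2 and number the animals separately, although both carry 1 donor identifier. There was 1 group, so levels and the ratio between the animals are described without a test, and errors are SD with n = 2.

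MicroRNA genes give folded precursor RNAs, the hairpins, and enzymes cut mature microRNAs out of them, 1 from each arm (5p and 3p). A mature microRNA pairs with target mRNAs mainly through its seed, bases 2 to 8, and lowers their translation and stability. The miR-15 family is known for repressing cell cycle genes such as cyclins and checkpoint kinases, and in the mouse heart miR-195a is known to increase after birth, when cardiomyocytes leave the cell cycle. The tables count whole hairpins, so the arms were not separated.

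The 5p arms are shown because the shared seed defines the family. Capitals mark the seed in each sequence, from RefSeq on GRCm38.p6, written 5′ to 3′.
miR-15a-5p: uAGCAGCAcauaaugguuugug
miR-15b-5p: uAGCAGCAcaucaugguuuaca
miR-16-5p: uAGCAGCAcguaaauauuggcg
miR-195a-5p: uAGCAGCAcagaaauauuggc
miR-497a-5p: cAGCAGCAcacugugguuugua
miR-322-5p: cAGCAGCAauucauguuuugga
miR-503-5p: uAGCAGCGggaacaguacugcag

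The seed AGCAGCA was identical in the 5 distinct 5p arms of the 6 hairpins. In the RefSeq table, 11 hairpins carried a mature microRNA with this seed. Beyond the members these were Mir322, Mir195b, Mir6342, Mir6353 and Mir6419. Of these 5, Mir322 alone had counts, and the other 4 were at 0 in both libraries, which allows up to 1.46 CPM in replicate 1 and 1.13 CPM in replicate 2 (3 counts, counting error only). Mir503, often placed with this family, has a seed that ends in a different base. Outside the seed the arms differed. Compared position by position from the 5′ end without gaps, miR-16-5p and miR-195a-5p were the closest pair among the members, with 19 of 21 identical bases. The pair miR-16-5p and miR-497a-5p was the least alike, with 11 of 22. The 5p arms of cluster mates lay within that range: miR-15a-5p and miR-16-5p had 16 of 22, miR-15b-5p and miR-16-5p 14 of 22, and miR-195a-5p and miR-497a-5p 12 of 21.

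The 6 hairpins lie in 3 clusters of a pair each, with coordinates in mm10 (GRCm38). Mir15a (chr14:61632027-61632110) and Mir16-1 (chr14:61631880-61631972) lie 54 nt apart on the minus strand inside Dleu2, a long noncoding RNA gene. Mir15a was intronic in all 8 Dleu2 transcripts that span it, and Mir16-1 overlapped an exon of 1 of 8. Mir15b (chr3:69009772-69009835) and Mir16-2 (chr3:69009902-69009996) lie 66 nt apart on the plus strand, in introns of Smc4, which encodes a condensin subunit that compacts chromosomes in mitosis. Mir497 (chr11:70234717-70234800) and Mir195a (chr11:70235042-70235135) lie 241 nt apart on the plus strand and had no host gene on their strand in GENCODE M21. Mir497 alone had a hairpin annotated on the other strand over it, Mir497b (chr11:70234692-70234816). GC content ran from 36.8% in Mir16-2 to 61.9% in Mir497 over the 5 hairpins with a RefSeq hairpin sequence.

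**Figure D1:**
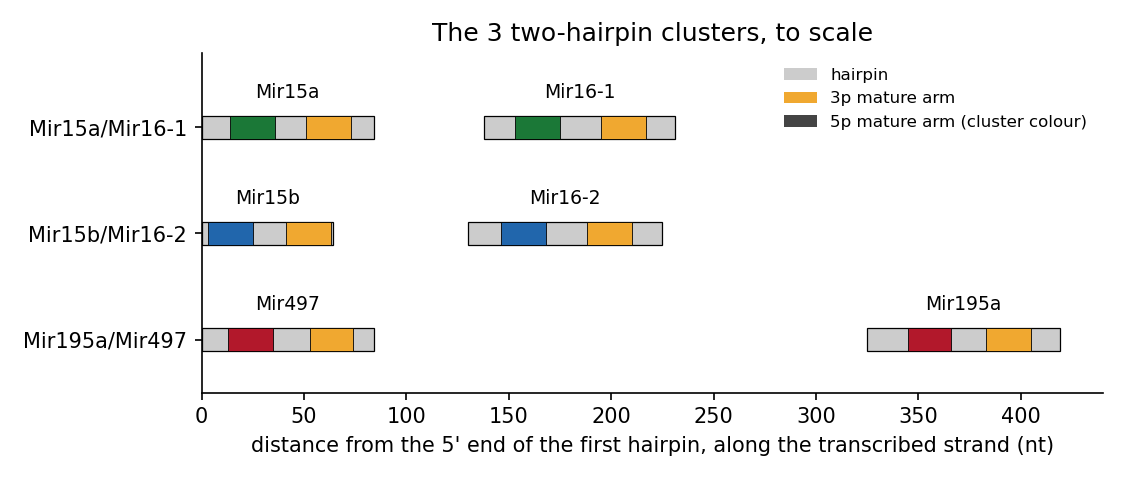
The 3 clusters drawn to scale along the transcribed strand, with distance in nt from the 5′ end of the first hairpin on the x axis, hairpins in grey and the mature arms in colour. The Mir195a and Mir497 hairpins are 241 nt apart, against 54 and 66 nt in the other clusters.

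Mir16-1 and Mir16-2 are shown in full because their counts depend on what the loci share. Capitals mark the longest run common to both, 23 nt, which holds all of miR-16-5p.
Mir16-1: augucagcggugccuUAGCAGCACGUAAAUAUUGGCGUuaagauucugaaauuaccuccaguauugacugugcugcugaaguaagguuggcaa
Mir16-2: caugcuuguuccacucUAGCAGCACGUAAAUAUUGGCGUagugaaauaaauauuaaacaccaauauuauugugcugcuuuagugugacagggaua

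A read of exactly miR-16-5p matches both loci. The tables put reads that match several places in a row of their own, 38.5% of all reads in replicate 1 and 41.6% in replicate 2, which names no hairpin. The counts at Mir16-1 and Mir16-2 are therefore uncertain as a measure of miR-16. Which arm the counted reads came from is not recorded in the tables. The 3p arms of the 2 loci were identical at 12 of 22 positions. The longest run shared with a hairpin elsewhere was shorter for Mir195a (16 nt, with Mir195b), Mir497 (12 nt) and Mir15b (11 nt).

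The libraries held 2050498 hairpin counts (replicate 1) and 2661090 (replicate 2), the sums over which CPM was taken. Of 7 cardiomyocyte hairpins, Mir208a (1620 and 5862 CPM in replicates 1 and 2) and Mir499 (2629 and 2317 CPM), both within myosin genes, were well covered. Mir208b had 391 and 297 counts and Mir1a-2 had 94 and 31. Mir1a-1, Mir133a-1 and Mir133a-2, with Mir1a-2 loci of the main muscle microRNAs, had at most 8 counts. Reads that match several places are left out of these counts, which are therefore no measure of the mature microRNAs.

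Together the 6 family hairpins held 1.54% of the hairpin counts in replicate 1, with a 95% Wilson interval from 1.53 to 1.56. Their share in replicate 2 was 0.350% (0.343 to 0.357). The mean was 0.947% ± 0.845. These are 31676 and 9304 counts. Replicate 1 was thus the high library for the counted reads of the family, and the spread between the animals was nearly as large as the mean. All 6 had counts in both hearts, with 133 or more at each. Reads that match several places are left out, among them reads of exactly the mature arm shared by Mir16-1 and Mir16-2. The family share is therefore uncertain as a measure that includes miR-16. In bulk tissue, fewer cells of a type and less RNA per cell cannot be told apart.

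In the Mir195a/Mir497 cluster, Mir195a had 14176 counts in replicate 1 and 2283 in replicate 2. These are 6913 and 858 CPM, a mean of 3886 ± 4282 CPM, the highest mean of the family. Its rank by CPM among the 326 compared hairpins was 23 in replicate 1 and 66 in replicate 2. A hairpin was compared where 1 library or both gave it 10 counts or more. Mir497, its neighbour, had 2001 and 1352 counts, or 976 and 508 CPM (742 ± 331 CPM). Both were higher in replicate 1, by very different amounts.

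In the Mir15b/Mir16-2 cluster, Mir15b had 9521 counts in replicate 1 and 3806 in replicate 2, which are 4643 and 1430 CPM (3037 ± 2272 CPM). Mir15b had the most counts of the family in replicate 2, whereas Mir195a had the most in replicate 1. Mir16-2 was the lowest member in both libraries, with 430 and 133 counts, or 209.7 and 49.98 CPM (129.8 ± 113 CPM). In these counts, which leave out reads that match several places, its levels lay below the range of every other member.

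In the Mir15a/Mir16-1 cluster, known as a region often deleted in chronic lymphocytic leukaemia in humans, Mir15a had 3656 and 947 counts. These are 1783 CPM in replicate 1 and 356 CPM in replicate 2 (1069 ± 1009 CPM). Mir16-1 had 1892 and 783 counts, or 923 and 294 CPM (608 ± 444 CPM). Both mates were again higher in replicate 1. Counted reads of Mir16-1 outnumbered those of Mir16-2 in both hearts, for the locus-specific reads described above.

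By mean CPM the order was Mir195a, Mir15b, Mir15a, Mir497, Mir16-1 and Mir16-2. Per 100 nt of hairpin, mean levels of Mir15b (4745 CPM) and Mir195a (4134 CPM) changed places, since the annotated Mir15b hairpin is short (64 nt against 94 nt), and the other 4 kept theirs. The ranges over the 2 hearts overlapped for each pair of neighbours in that order except Mir16-1 and Mir16-2. The order also differed between the animals: Mir195a led Mir15b in replicate 1 and followed it in replicate 2, and Mir15a and Mir497 likewise exchanged the third and the fourth place.

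**Figure D2:**
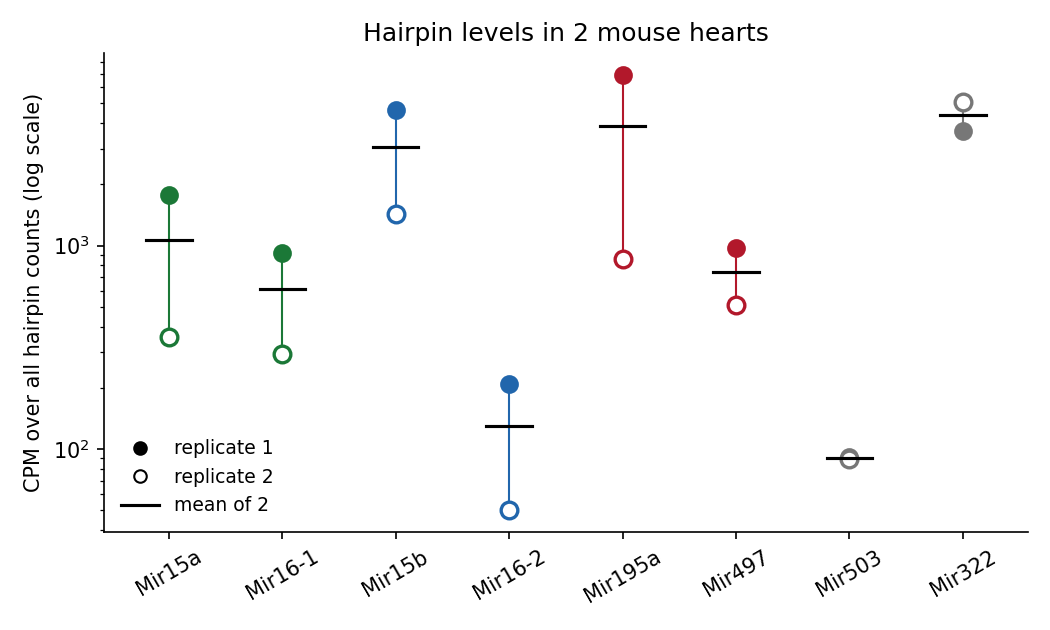
CPM on a log axis for the 6 family hairpins and for Mir503 and Mir322, with a filled circle for replicate 1, an open circle for replicate 2 and a bar at their mean. All 6 members were higher in replicate 1, by 6913 against 858 CPM for Mir195a, while Mir322 was higher in replicate 2.

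The make-up of the family counts differed between the hearts. The Mir195a/Mir497 cluster supplied 51.1% of them in replicate 1 (50.5 to 51.6, Wilson) and 39.1% in replicate 2 (38.1 to 40.1). The Mir15b/Mir16-2 cluster supplied 31.4% in replicate 1 (30.9 to 31.9) and 42.3% in replicate 2 (41.3 to 43.3). The Mir15a/Mir16-1 cluster, at 17.5% and 18.6%, was the most even of the 3. The largest single shift was in Mir195a, from 44.8% of the family in replicate 1 to 24.5% in replicate 2, while Mir497 went from 6.32% to 14.5%. These shares need no scaling between the libraries, and their intervals cover counting error only, since PCR copies were not told apart. Reads that match several places are left out, so the shares of Mir16-1, Mir16-2 and their clusters are uncertain.

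**Figure D3:**
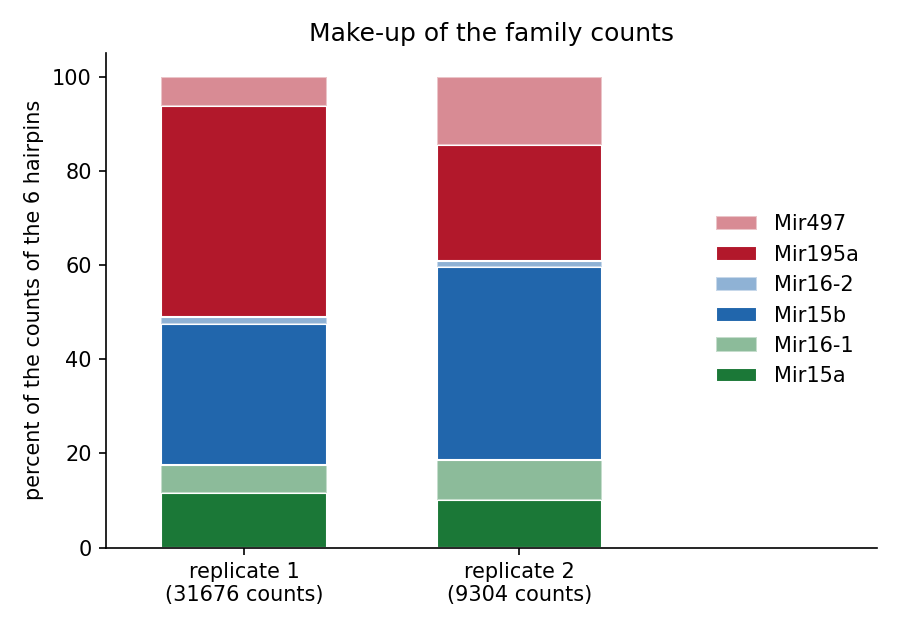
Stacked bars of each hairpin's percent of the family counts in replicates 1 and 2, with a colour for each cluster and the paler shade for the mate with fewer counts. Mir195a takes 44.8% of the first bar and 24.5% of the second, and Mir15b 30.1% and 40.9%.

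The animals matched in strain, sex and age, and the ratio between them was taken for each hairpin. All 6 hairpins were lower in replicate 2, beside 148 (45.4%) of the 326 compared hairpins. Of the 6, 5 were at least 2-fold lower, which is the case for 13.8% of the 326 compared hairpins. Each log2 ratio divides replicate 2 by replicate 1 after TMM scaling of CPM and a pseudocount of 1 CPM, and brackets give the exact 95% counting interval. The median over the 6 was -1.64, beside 0.09 over all compared hairpins, whose central 50% lay from -0.53 to 0.57. The difference between the animals has no replicate check.

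Mir195a had the lowest ratio of the family, -2.78 (-2.84 to -2.72), or 6.86-fold higher in replicate 1. It was the fifth lowest of the 326. Mir15a followed with -2.09 (-2.20 to -1.99), the seventh lowest, and Mir16-2 with -1.82 (-2.13 to -1.55), the 13th. Mir15b at -1.47 (-1.52 to -1.41) and Mir16-1 at -1.42 (-1.54 to -1.30) ranked 26 and 28 from the lowest. Mir497 stood apart from them at -0.71 (-0.81 to -0.61), rank 65, and was the 1 member within 2-fold. No counting interval of a member reached 0. Among the 188 hairpins that reached 100 counts in a library, a set chosen after seeing that every member reaches it, 13.3% were at least 2-fold lower in replicate 2, so the background was about the same without hairpins of few counts.

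**Figure D4:**
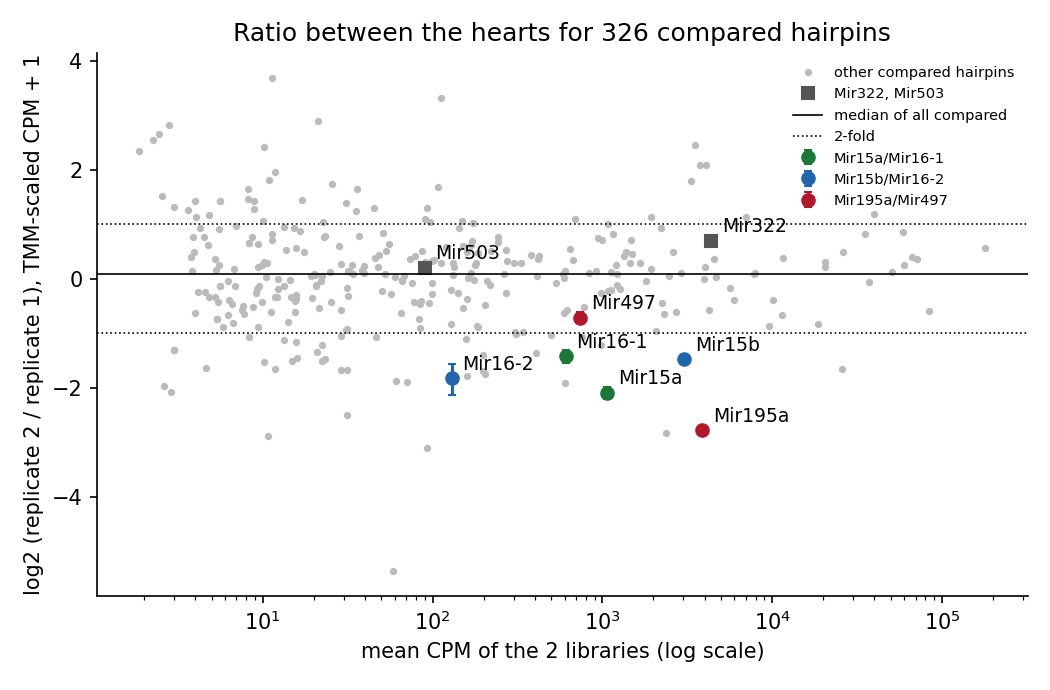
Log2 ratio of replicate 2 over replicate 1 against mean CPM (log axis) for the 326 compared hairpins, with members coloured by cluster, bars for their exact 95% counting intervals, the median of all hairpins as a line and 2-fold as dotted lines. Of the 6 members, 5 lie below the lower dotted line and Mir497 lies at -0.71.

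Scaling by total hairpin counts moved the median of all compared hairpins from 0.09 to -0.14 and the share at least 2-fold lower to 17.8%. Relative to the median of all hairpins under TMM, Mir195a was at -2.87 and Mir497 at -0.80. The direction of all 6 members was the same under both scalings.

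Mates of a cluster are known to be cut from a shared primary transcript. In the Mir195a/Mir497 cluster, Mir195a made up 87.6% of the counts of the pair in replicate 1 (87.1 to 88.1, Wilson) and 62.8% in replicate 2 (61.2 to 64.4). Per Mir497 count there were 7.08 Mir195a counts in replicate 1 and 1.69 in replicate 2, a log2 change of -2.07 (exact counting interval -2.19 to -1.95). The 2 hairpins thus kept their order, with a much smaller gap in replicate 2. Both hairpins are shown, with the mature arms in capitals, because the ratio of this pair changed most of the 3 clusters. The arms themselves were not counted apart.
Mir195a: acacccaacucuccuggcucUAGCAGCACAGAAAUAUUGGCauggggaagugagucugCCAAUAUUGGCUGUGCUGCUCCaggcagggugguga
Mir497: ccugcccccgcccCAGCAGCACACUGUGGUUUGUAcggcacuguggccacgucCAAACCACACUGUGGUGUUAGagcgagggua

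The other clusters were closer. Mir15a made up 65.9% of the counts of its pair with Mir16-1 in replicate 1 (64.6 to 67.1) and 54.7% in replicate 2 (52.4 to 57.1), a log2 change of the ratio of -0.68 (-0.84 to -0.52). Mir15b made up 95.7% of its pair with Mir16-2 in replicate 1 (95.3 to 96.1) and 96.6% in replicate 2 (96.0 to 97.1), a log2 change of 0.37 (0.08 to 0.67). In this cluster alone of the 3 the mate with more counts had the smaller difference between the hearts.

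For a background, the absolute difference of log2 ratios was taken over the other 300 pairs of compared hairpins on 1 strand within 10 kb. Most of these pairs lie on chromosome 12, and many share a hairpin. The median difference was 0.76, with quartiles of 0.31 and 1.45. The differences within the Mir15b/Mir16-2 (0.35) and Mir15a/Mir16-1 (0.68) clusters lay below that median. Against closer or better covered pairs, the Mir15a/Mir16-1 difference lay above the median, which was 0.59 over 78 pairs within 1 kb and 0.59 over 94 pairs with at least 100 counts in a library at both hairpins, and the Mir15b/Mir16-2 difference stayed below it. The difference of Mir195a and Mir497, 2.07, was reached by 32 of the 300 pairs, and by 6 of 94 where both hairpins had at least 100 counts in a library. Within 1 kb, 3 of 78 pairs reached it.

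**Figure D5:**
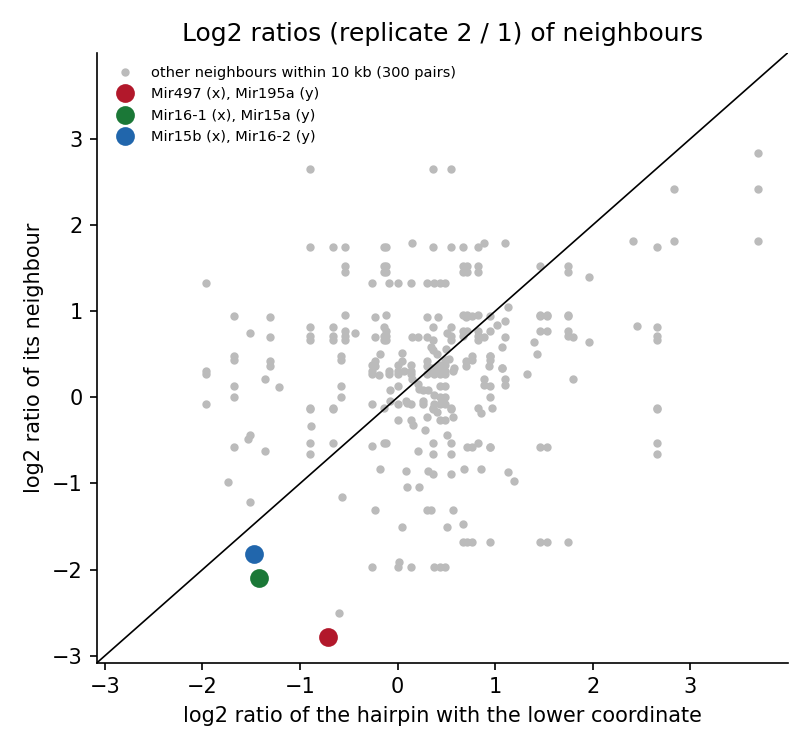
Log2 ratios (replicate 2 over replicate 1) of neighbouring hairpins, with the hairpin of lower coordinate on the x axis, its neighbour on the y axis, 300 other pairs in grey and the line of equal ratios. The Mir15b/Mir16-2 point lies near the line and the Mir497/Mir195a point 2.07 below it.

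Of the X-linked relatives, Mir322 was higher in replicate 2 and Mir503 differed little between the hearts. Mir322, the mouse counterpart of human miR-424 with the family seed, had 7536 and 13588 counts, or 3675 and 5106 CPM (4391 ± 1012 CPM), a log2 ratio of 0.70. Mir503, its neighbour on chromosome X, had 187 and 239 counts, or 91.2 and 89.8 CPM, a log2 ratio of 0.21 (-0.07 to 0.49) that was -0.02 by total counts. Neither passed 2-fold. Over all 11 hairpins with the seed AGCAGCA, the share of hairpin counts was 1.91% in replicate 1 (1.89 to 1.93) and 0.860% in replicate 2 (0.849 to 0.871). Mir322 supplied 19.2% of these counts in replicate 1 (18.8 to 19.6) and 59.4% in replicate 2 (58.7 to 59.99). The members supplied most of the counts with this seed in replicate 1 and fewer than Mir322 alone in replicate 2, over whole hairpins and with multimapping reads left out.

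Other microRNAs linked to the cell cycle did not share 1 direction. Against the background of 13.8% in each direction, the miR-17-92 polycistron, a proliferation-promoting cluster, had 0 of 4 compared hairpins 2-fold lower and 0 of 4 higher, a median log2 ratio of 0.02. Its highest hairpins, Mir92-1 (1815 ± 239.7 CPM) and Mir17 (1201 ± 15.5 CPM), had ratios of -0.04 and 0.26. In the miR-106b-25 cluster, within the replication gene Mcm7, 1 of 3 was 2-fold lower (median -0.62). Mir93 had 4031 ± 40.3 CPM and a ratio of 0.21, Mir106b 599 ± 242 CPM and -0.62, and Mir25, named after its value was seen, -1.36. The miR-106a-363 cluster had 0 of 2 past 2-fold (median -0.08), with 86.2 ± 2.90 CPM for Mir92-2 and 5.24 ± 1.56 CPM for Mir106a.

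The list of p53-induced microRNAs had 3 of 6 compared hairpins at least 2-fold lower and 1 at least 2-fold higher, where 13.8% of all compared hairpins were so in each direction, and a median of -1.09. Mir34a, the best known of them, had 5888 and 3354 counts (2066 ± 1139 CPM) and a ratio of -0.96, and Mir34c had 39 and 140 counts and a ratio of 1.64. The 3 lower hairpins were Mir215, Mir194-2 and Mir192, each with at most 113 counts. The single-locus let-7 hairpins, which restrain growth genes, had 0 of 6 past 2-fold and a median of 0.24. The ratios of Mirlet7i and Mirlet7g, the highest of them by mean CPM, were 0.37 and 0.26.

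The hairpins nearest the family median ratio were Mir22 (82929 and 29076 counts, log2 ratio -1.66), Mir381 (-1.67), Mir210 (-1.69), Mir144 (-1.74) and Mir152 (-1.78). They were taken by the distance of the log2 ratio among 182 other hairpins with at least 100 counts in a library. Over 2 libraries this likeness rests on a single ratio.

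Markers of several heart and blood cell types also differed between the libraries. Counts of hairpins in this paragraph are of those at least 2-fold lower or higher in replicate 2, beside 13.8% of all compared hairpins in each direction. Sums are of CPM without TMM scaling, whereas the log2 ratios use it. The erythroid hairpins Mir451a, Mir144 and Mir486 had log2 ratios below 0, with 1 of 3 at least 2-fold lower, and summed to 1783 CPM in replicate 1 and 869 CPM in replicate 2. Of the 4 fibroblast hairpins, 2 were compared and 1, Mir214, was 2-fold lower (4251 and 508 CPM), while Mir21a had 1974 and 1903 CPM and Mir199a-1 was at 0 in both. The fibroblast sum was 6230 and 2414 CPM. Endothelial Mir126a had 108082 and 60950 CPM. The cardiomyocyte list summed to 4493 and 8308 CPM, with 1 of 4 compared hairpins 2-fold higher (Mir208a) and 1 lower (Mir1a-2). Mir208a alone of these 4 was higher in replicate 2 by CPM (1620 and 5862). Mir499 (2629 and 2317 CPM), Mir208b (191 and 112) and Mir1a-2 (45.8 and 11.6) were lower. The median log2 ratio of the list was -0.25. The smooth muscle pair Mir143 and Mir145a summed to 29354 and 48287 CPM, with 1 of 2 higher. The 4 leukocyte hairpins summed to 4647 and 4648 CPM, with 2 at least 2-fold higher and 0 at least 2-fold lower. The log2 ratios of Mir150, Mir223 and Mir142 were 1.13, 1.03 and 0.76. That of Mir155, with 2981 and 1632 CPM, was -0.64. The epithelial list summed to 404 and 370.1 CPM, with 2 of 6 lower and 1 higher, and Mir205 had 116 and 1.503 CPM. The liver microRNA Mir122 had 22.9 and 202.9 CPM. Reads that match several places are left out of all these counts and sums, also where a hairpin was at 0. The part of these marker differences in the family ratios was not tested.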

How the data were processed

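MicroRNA-seq was made from heart RNA of 2 mice. The deposited tables hold raw read counts per hairpin, not normalized, in 3 columns (either strand, the hairpin's own strand, the opposite strand). The assembly was mm10 with GENCODE M21, per the file headers of the deposited notes, and the aligner and counter are not given in the sources used here. All 2202 identifiers matched GENCODE M21. Rows for reads outside hairpins were left out of library sums. Multimapping, unmapped and no-feature reads were 38.5%, 14.1% and 6.48% of replicate 1 and 41.6%, 11.5% and 5.64% of replicate 2. Counts on the hairpin's own strand were used. CPM, Wilson and exact intervals (SciPy 1.17.1) and TMM factors (edgeR 4.0.16, R 4.3.3) were computed from the counts. Compared hairpins had at least 10 counts in at least 1 library. The ratio calculation was tested on simulated data that hold counting error only, so that test does not measure the spread between animals. With 1 group of 2, no p-value was computed. Nothing beyond the labels shows that the libraries are separate animals, so their spread may be technical.

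Named hairpins were all members, hairpins with the same seed, Mir322, Mir503, any hairpin opposite a member, the 5 nearest in ratio, and the 2 highest of each cell cycle list. The members and lists were chosen with earlier results of these data known. Alternatives covered scaling (total counts, DESeq2 1.42.0), pseudocounts, count minimums, strand column, denominators and each replicate left out. Mature and hairpin sequences are from RefSeq (GRCm38.p6); Mir15a had mature arms there.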

Additional observations from a re-analysis of the deposited data

Results flagged for a closer look

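Reads that matched several places lie outside the hairpin counts and numbered 1925044 in replicate 1 and 2686901 in replicate 2, above the limit of 3 counts set for a count of 0. Which of them carry miR-16-5p was not tested. At Mir497b, annotated opposite Mir497, the opposite-strand column held 2001 and 1352 reads, the same numbers as Mir497 on its own strand. Mir497b covers the whole of Mir497, so that column takes in the reads of Mir497 and adds no separate signal. Mir497b itself had 1 and 0 counts on its own strand.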

How the results depend on the processing

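All 47 alternative log2 ratios of the members were below 0. Those of Mir195a ran from -3.01 to -2.77 and those of Mir497 from -0.94 to -0.71. The number of members at least 2-fold lower was 5 under every alternative scaling, pseudocount, minimum and strand column tried, and 6 at 1.5-fold, where 23.3% of all compared hairpins passed. The median over the members was -1.87 by total counts, -1.81 with a minimum of 50 counts and -1.84 in the column without regard to strand, where Mir497 stood at 0 in both libraries and dropped out. In that column Mir195a therefore made up 100% of its pair, so the discordance of this pair rests on the stranded column. Mir497b, which covers the whole of Mir497 on the other strand, was also at 0 there. Reads called ambiguous in that column numbered 609641 in replicate 1 and 768383 in replicate 2. It does not separate overlapping hairpins of opposite strands, so it cannot test the ratio of Mir195a and Mir497. Without the 10 highest hairpins, whose counts leave the denominator, the family share was 2.84%, and over all reads of the library it was 0.388%. The family share was 0.350% without replicate 1 and 1.54% without replicate 2. Leaving out a replicate leaves no ratio. No paired analysis was possible because there is only 1 group. Counts of Mir16-2, the lowest, limit its interval most.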
